A study of Mus musculus with 6 samples.

Results

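The kinases and adaptors that carry a signal from the B cell receptor were read in pro-B cells that lack the transcription factor Pax5 and were given an EBF or a control retrovirus. The members are 8 genes, chosen by name: Blk, Syk, Btk, Blnk, Plcg2, Pik3ap1, Bank1 and Ralgps2. Every probe set whose platform symbol is exactly one of these names was kept apart from the others, which gave 14 probe sets of the 45037 tested, and 8 of 18193 genes. Both groups consist of mouse Pax5-/- pro-B cells kept in IL-7 at 5 ng/ml over ST2 stroma, a line of bone marrow support cells. One group received the Mig-EBF retrovirus and the other the control retrovirus MigR1; cells that expressed GFP were sorted 2 days later, and total RNA from each group went onto 3 Affymetrix arrays. The labels give no age or strain for the animals, and do not say whether the arrays of a group come from separate cultures, so the p-values measure only the spread between these arrays, which may be technical. What drives the retroviral insert was not stated in the labels.

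The B cell receptor has no enzymatic activity of its own. Src family kinases such as Blk phosphorylate tyrosines in the tails of its signalling chains Cd79a and Cd79b, Syk docks there and is activated, and Syk phosphorylates the scaffold Blnk, which brings Btk and phospholipase C gamma 2 (Plcg2) together. Pik3ap1 and Bank1 are further adaptors, and Ralgps2 activates Ral GTPases. The same enzymes serve the pre-B cell receptor, and Blnk is known as a gene that Pax5 activates.

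Array quality bears on all that follows. Array medians ranged from 424.3 to 451.3, and the Bacillus control probe sets, which have no target in mouse RNA, reached 324.2 to 410.4 at most. EBF 3 stood apart: its rank correlation over 45037 probe sets was 0.987 to 0.989 with the other EBF arrays and 0.990 to 0.993 with the control arrays. Deviations of same-numbered EBF and control arrays from their group means went together (r = 0.318, 0.255 and 0.503 for numbers 1, 2 and 3), so the numbers were taken to pair the arrays. All 12 pro-B markers, Cd79b, Vpreb1, Igll1 and Rag1 among them, exceeded the brightest Bacillus control in all arrays, whereas 3 of the 4 measured mature B cell markers, Cr2, Fcer2a and Ms4a1, did not. Ms4a1, which encodes CD20, rose from 260, 267 and 241 in control 1 to 3 to 544, 612 and 620 in EBF 1 to 3 (log2 1.11, limma adjusted p = 0.00118). The 4 markers summed to 3104 to 3219 in EBF and 2915 to 3084 in control arrays, without overlap. Of the 4, Ms4a1 alone passed. Cd22, the brightest, had log2 -0.12 (limma adjusted p = 0.386), and Cr2 and Fcer2a had 0.12 and 0.04. Ebf1 itself was not raised past the threshold: its brightest probe set read 4772, 4756 and 4082 in EBF 1 to 3 and 4204, 4276 and 4029 in control 1 to 3 (log2 0.12; limma adjusted p = 0.469, blocked 0.377). Whether it reads RNA from the virus is not known here, so the arrays are called EBF after their labels. The marker Kit of the same pro-B list fell, and so did Dntt.

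None of the member probe sets passed in the fit on group alone, and 1 passed with the replicate number added. All of their differences were small. Differences are of log2(intensity + 32), EBF minus control, and a call means an adjusted p below 0.05. By limma, 0 of 14 had a Benjamini-Hochberg adjusted p below 0.05, against 0.875% of all probe sets; 2 of 14 had an unadjusted p below 0.05, against 18.9% of all. When the fit also held the replicate number as a block, 1 of 14 passed, a Pik3ap1 probe set that was lower in EBF. In that fit 3280 of all 45037 probe sets passed in either direction, and 2.40% of all passed as lower. The largest difference was 1.30-fold, and no 95% interval reached further from 0 than 0.59 on the log2 scale, so a 2-fold change in signal lay outside the interval of each of the 14. For the 4 that did not exceed the brightest Bacillus control in all arrays (Blnk, Bank1 and 1 each of Syk and Ralgps2), an interval of the signal sets no such limit on the gene. Over the 14 member probe sets the median log2 difference was 0.02, as was that of all 45037 probe sets, and the median size was 0.11 in both.

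The order of the arrays was compared as well. The EBF and control arrays did not overlap in 5 of 14 member probe sets, or 35.7%, against 23.2% of all probe sets. Of the 5, 3 read higher in EBF (1 each of Syk, Bank1 and Ralgps2), where 15.5% of all did, and 2 lower (Plcg2 and 1 of Pik3ap1), where 7.67% of all did. Probe sets of 1 gene share its transcripts and are not independent. In 8 of 14 the EBF array lay on the same side of its same-numbered control in all 3 pairs, against 46.8% of all probe sets.

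**Figure D1:**
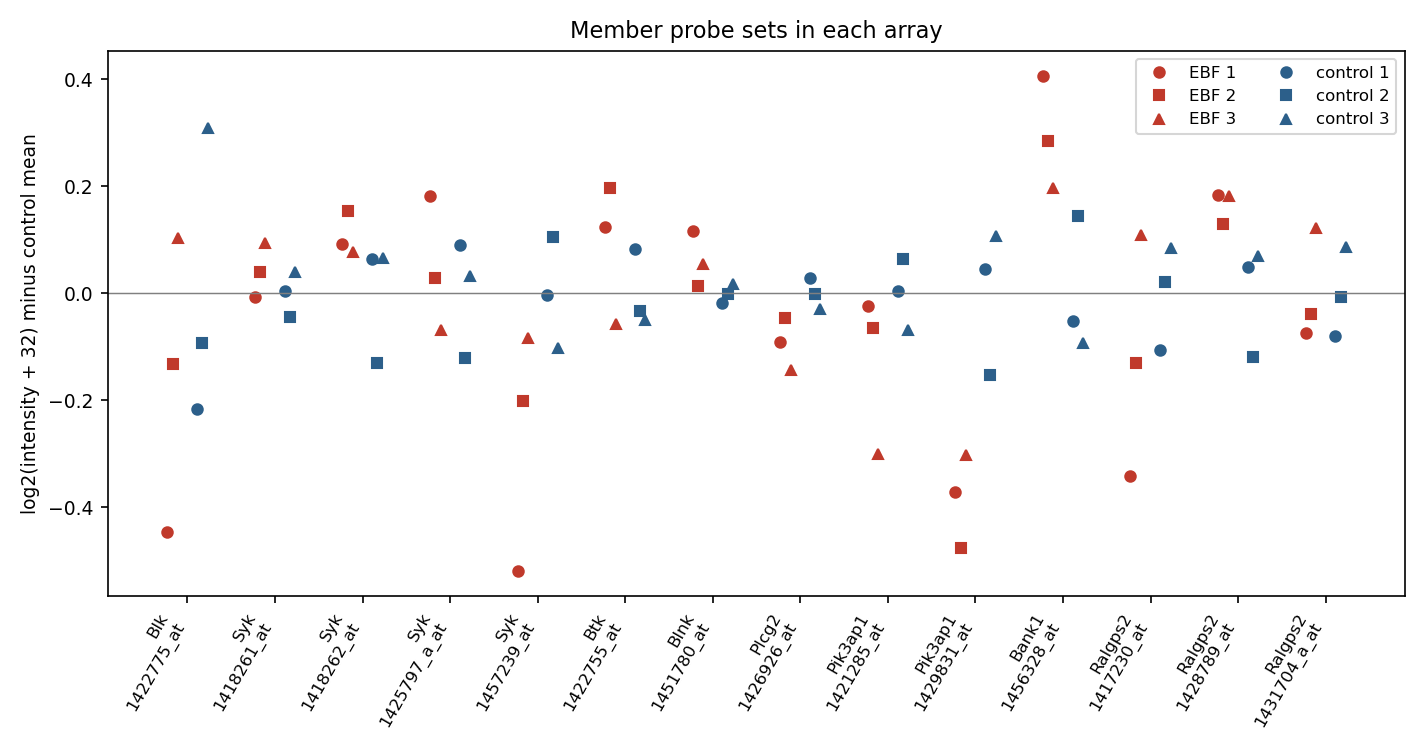
Each point is 1 array: log2(intensity + 32) minus the mean of the control arrays, for the 14 member probe sets; red marks EBF, blue control, and the shape the replicate number. EBF lies clear of control only for 1 probe set each of Syk (1418262_at), Plcg2, Pik3ap1 (1429831_at), Bank1 and Ralgps2 (1428789_at), while Blk spreads more widely within each group than the group means differ.

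**Figure D2:**
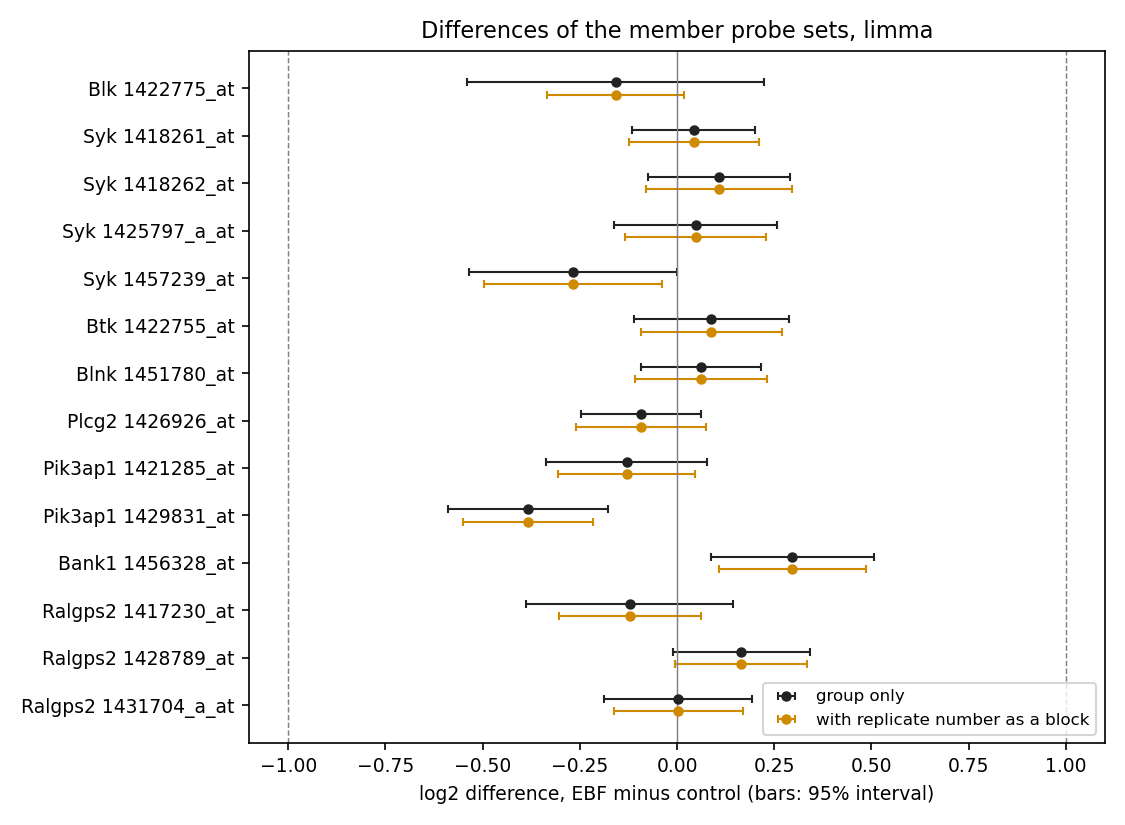
Log2 differences, EBF minus control, of the 14 member probe sets with 95% intervals from limma, without the replicate number (black) and with it as a block (orange); dashed lines mark a 2-fold change. No interval reaches the dashed lines, and those of Pik3ap1 (1429831_at) and Bank1 exclude 0 in both fits before adjustment, as does that of Syk (1457239_at) with the block.

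The Src family kinase Blk, largely restricted to the B lineage and one of the kinases that act first at the receptor, read 3151, 3927 and 4628 in EBF 1 to 3 and 3703, 4034 and 5339 in control 1 to 3 (probe set 1422775_at). The groups overlapped, and the lowest array of each group was number 1 and the highest number 3. The means were 3902 ± 739 and 4359 ± 865 (SD, n = 3 each), a gap of -0.16 ± 0.17 in log2 (SE; limma adjusted p = 0.635; 95% interval -0.54 to 0.22). Taken by number, EBF was lower than control by log2 -0.23, -0.04 and -0.20, in 3 of 3 pairs. The value hung on single arrays: it was -0.014 without EBF 1, -0.0039 without control 3 and -0.29 without EBF 3. The block narrowed the SE to 0.08 and the interval to between -0.33 and 0.02, without a call (adjusted p = 0.242).

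Syk, the kinase that binds the phosphorylated receptor tails through its paired SH2 domains, was read by 4 probe sets. The brightest (1418261_at) gave 3678, 3798 and 3948 in EBF 1 to 3 and 3706, 3581 and 3801 in control 1 to 3, so that the groups overlapped. Its log2 difference of 0.04 ± 0.07 (SE; limma adjusted p = 0.771) had a 95% interval of -0.12 to 0.20. A second one (1418262_at) read 1504, 1570 and 1488 against 1474, 1285 and 1477. Here every EBF array exceeded every control, by little: the log2 difference was 0.11 ± 0.08 (SE; limma adjusted p = 0.490). For the third (1425797_a_at) the groups overlapped, with 1204, 1078 and 1007 against 1127, 969 and 1081 and a log2 difference of 0.05.

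The remaining Syk probe set (1457239_at) pointed the other way. It read 324, 411 and 449 in EBF 1 to 3 and 476, 516 and 443 in control 1 to 3, near the brightest Bacillus controls, which it exceeded in 5 of 6 arrays. The log2 difference was -0.27 ± 0.12 (SE; limma adjusted p = 0.265), with EBF 1 farthest below the controls and EBF 3 just above control 3. The gap between this probe set and the brightest one, 0.31 in log2 difference, did not overlap between the groups; in an exact two-sided permutation test over the arrays its p was 0.10, the smallest that 3 against 3 arrays allow, and 0.333 after adjustment over the 10 pairs of probe sets within a member gene.

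Btk, a Tec family kinase that phosphorylates phospholipase C gamma 2, read 3057, 3217 and 2692 in EBF 1 to 3 and 2968, 2738 and 2705 in control 1 to 3. EBF 3 was the lowest of all 6 arrays and EBF 2 the highest. The log2 difference was 0.09 ± 0.09 (SE; limma adjusted p = 0.607; 95% interval -0.11 to 0.29). Btk differed in sign between pairs, higher in EBF for numbers 1 and 2 and level for number 3 (-0.01).

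Plcg2 cleaves a membrane phosphoinositide into the messengers that release calcium and activate protein kinase C. It read 7280, 7517 and 7028 in EBF 1 to 3 and 7920, 7754 and 7608 in control 1 to 3. Every EBF array was below every control, and each was below its same-numbered control. The size was slight, 1.07-fold (log2 -0.09 ± 0.07 SE; limma adjusted p = 0.480), and the 95% interval ran from -0.25 to 0.06.

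**Figure D3:**
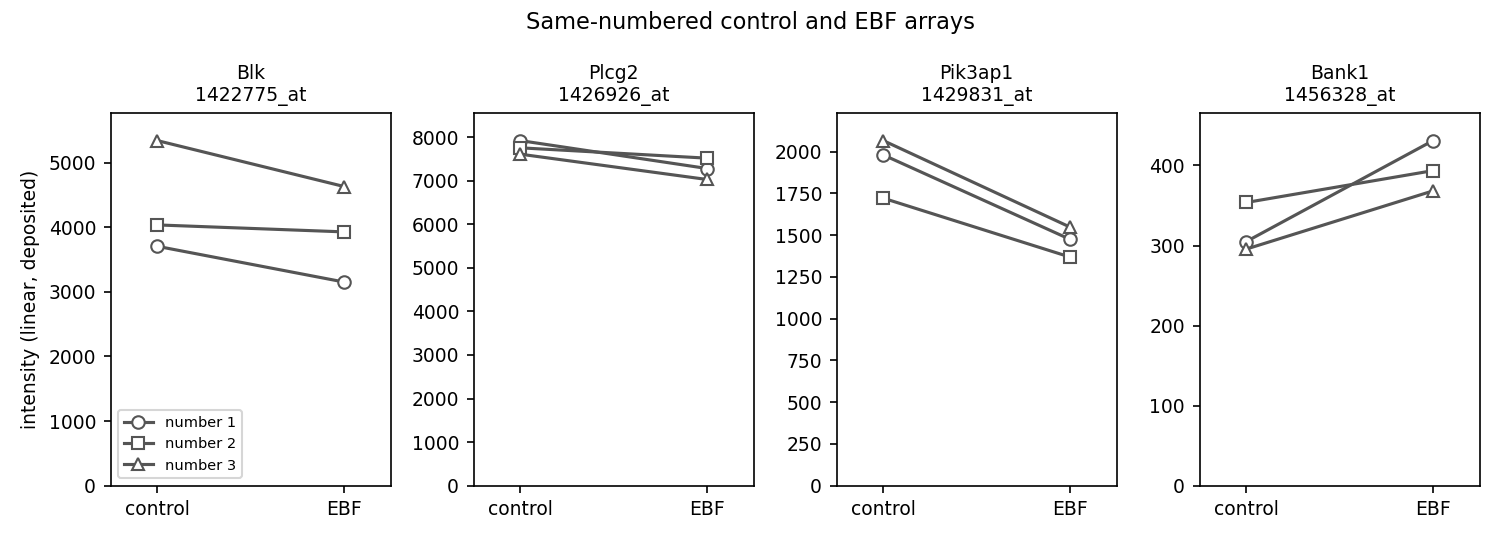
Deposited intensity, on a linear axis from 0, of Blk, Plcg2, Pik3ap1 (1429831_at) and Bank1 in the control and EBF arrays, with a line joining arrays of the same replicate number. The lines of Blk, Plcg2 and Pik3ap1 go down in 3 of 3 pairs and those of Bank1 go up in 3 of 3; for Blk number 3 lies highest in both groups.

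Blnk, the scaffold that joins Btk to phospholipase C gamma 2, was read within the range of the Bacillus controls. Its probe set read 300.0, 277 and 286 in EBF 1 to 3 and 271, 274 and 278 in control 1 to 3, below the brightest Bacillus control in 6 of 6 arrays. The groups overlapped, with EBF 2 between control 2 and control 3. The log2 difference was 0.06 ± 0.07 (SE; limma adjusted p = 0.648; 95% interval -0.09 to 0.22). The values lay above the median Bacillus control of each array, which was 97.6 to 108, though below the brightest. At this intensity a low level and no expression cannot be told apart.

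Pik3ap1, an adaptor also called BCAP whose phosphorylated tyrosines recruit phosphoinositide 3-kinase, gave the largest difference among the members. Its brighter probe set (1429831_at) read 1474, 1368 and 1548 in EBF 1 to 3 and 1980, 1721 and 2066 in control 1 to 3. All EBF arrays lay below all controls, and the pairs differed by log2 -0.42, -0.32 and -0.41. The means were 1464 ± 90.1 and 1922 ± 180 (SD, n = 3 each), 1.30-fold apart, with a log2 difference of -0.38 ± 0.09 (SE) and a 95% interval of -0.59 to -0.18. The adjusted p by limma was 0.105, so the probe set did not pass; with the replicate block it fell with an adjusted p of 0.0185. It also passed without EBF 3 (limma adjusted p = 0.0360, log2 -0.42), where 4287 of all 45037 probe sets passed and 2.76% of all passed as lower. Without EBF 3 and control 2 together it passed too (0.0372, log2 -0.50), as did 1887 of all probe sets. With any other single array left out it did not pass (highest adjusted p 0.334). In bulk RNA, fewer cells that express a gene and less RNA per cell cannot be told apart.

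The other Pik3ap1 probe set (1421285_at) read 932, 904 and 764 in EBF 1 to 3 and 950, 992 and 903 in control 1 to 3. The groups overlapped, EBF 1 and EBF 2 lying above control 3, and EBF was lower in 3 of 3 pairs. Its log2 difference was -0.13 ± 0.09 (SE; limma adjusted p = 0.465; 0.337 with the block). The 2 probe sets thus had the same sign. The difference between them, 0.25 in log2, had an exact permutation p of 0.20 (two-sided, over the arrays, 0.333 adjusted over the 10 pairs). As the smallest p possible is 0.10, the test cannot decide whether the 2 probe sets differ.

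Genes whose profile over the 6 arrays lay closest to the brighter Pik3ap1 probe set were Zfp36l2, Bst2 and Rnf130. The measure was the root mean square difference of centred log2 values, over 15386 genes with a mean intensity of at least 200, and it was 0.038 for Zfp36l2, 0.038 for Bst2 and 0.041 for Rnf130. Bst2 read 2283, 2074 and 2371 in EBF 1 to 3 and 2846, 2493 and 3073 in control 1 to 3, with number 2 lowest in each group as for Pik3ap1. The 3 genes were picked for likeness, so their differences (log2 -0.34, -0.32 and -0.37) are a description.

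Bank1, a B cell scaffold that links Src family kinases to calcium release, had the largest difference upward. It read 431, 394 and 368 in EBF 1 to 3 and 305, 354 and 296 in control 1 to 3. Every EBF array exceeded every control, and the pairs differed by log2 0.46, 0.14 and 0.29. The means were 398 ± 31.6 and 318 ± 31.3 (SD, n = 3 each). The log2 difference was 0.30 ± 0.09 (SE, 95% interval 0.09 to 0.51), or 1.23-fold in intensity + 32. It passed neither without the block (limma adjusted p = 0.164) nor with it (0.0651), and it came nearest without EBF 3 and control 2 together (0.0505). The level was low: Bank1 exceeded the brightest Bacillus control in 2 of 6 arrays, and its log2 difference was 0.31 with the lower pseudocount tried and 0.24 with the higher.

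The promoters of Bank1 and Pik3ap1, the members that differed most and in opposite directions, are shown because EBF is a DNA-binding factor with a palindromic recognition sequence. RefSeq windows from 250 bases before to 50 bases after a transcript start (GRCm38.p6) were found for 7 of the 8 members, 9 windows in all. Capitals mark the core CCCNNGGG, which reads the same on both strands.
Bank1, chr3:136326017-136326316, minus strand: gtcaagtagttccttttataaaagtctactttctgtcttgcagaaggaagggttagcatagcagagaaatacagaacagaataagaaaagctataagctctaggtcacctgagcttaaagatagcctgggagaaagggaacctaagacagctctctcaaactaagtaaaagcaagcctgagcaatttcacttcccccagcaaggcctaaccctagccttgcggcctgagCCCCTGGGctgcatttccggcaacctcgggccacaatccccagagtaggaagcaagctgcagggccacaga
Pik3ap1, chr19:41385053-41385352, minus strand: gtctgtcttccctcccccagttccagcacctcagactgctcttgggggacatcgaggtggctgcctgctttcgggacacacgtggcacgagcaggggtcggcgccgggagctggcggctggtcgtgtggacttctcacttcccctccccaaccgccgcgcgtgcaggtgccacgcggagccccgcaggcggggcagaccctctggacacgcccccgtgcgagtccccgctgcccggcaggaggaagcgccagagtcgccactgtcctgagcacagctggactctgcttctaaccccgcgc
The full palindrome, this core with T before and A after it, was in 0 of the 9 windows and in 0.905% of 32817 mouse windows of this length. The core alone was in 1 of the 9, that of Bank1, where it begins 21 bases before the start (as CCCCTGGG), and in 13.7% of all windows. The E-box CANNTG, the motif of the E proteins, was in 9 of 9 and in 72.3% of all. These are matches of letters, and the arrays did not measure binding.

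Ralgps2, an exchange factor that loads Ral GTPases with GTP, was read by 3 probe sets that differed in sign. The brightest (1428789_at) read 747, 719 and 746 in EBF 1 to 3 and 678, 600 and 688 in control 1 to 3. All EBF arrays exceeded all controls there, by 0.16 ± 0.08 in log2 (SE; limma adjusted p = 0.291), and the 95% interval was -0.01 to 0.34. The probe set 1417230_at read 371, 434 and 518 against 442, 486 and 509, with a log2 difference of -0.12 ± 0.12. In this one the groups overlapped and EBF 1 lay lowest. The third (1431704_a_at) read 381, 391 and 441 against 379, 401 and 429, a log2 difference of 0.00, and its sign turned negative under each rescaling of the arrays (-0.03 after quantile normalization, -0.02 with equal trimmed means and -0.02 with equal medians). For each of the 3 pairs of Ralgps2 probe sets, the gap between the probe sets overlapped between the groups (exact two-sided permutation p = 0.20 for each). The smallest p possible with these arrays is 0.10, above the threshold for a call. The test therefore cannot decide whether the Ralgps2 probe sets differ from each other.

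Other genes of the pathway, grouped by role and read at their brightest probe set, were set beside the members. Of 119 listed, 102 were measured; 1 rose and 6 fell by limma, and 95 did not pass, against 0.418% of all genes higher and 0.671% lower. With the block 5 rose and 11 fell, against 4.82% and 2.52% of all genes. The list had a median log2 difference of -0.10, and all genes 0.03. The lists, like the members, were chosen with earlier results of these arrays known. The counts moved with single arrays, from 1 gene without EBF 2 or control 1, and 2 without EBF 1 or control 2, to 16 without EBF 3. The calls among all 45037 probe sets moved as well, from 394 with all arrays. They numbered 79 without EBF 2, 95 without control 1, 119 without EBF 1, 83 without control 2 and 4287 without EBF 3.

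**Figure D4:**
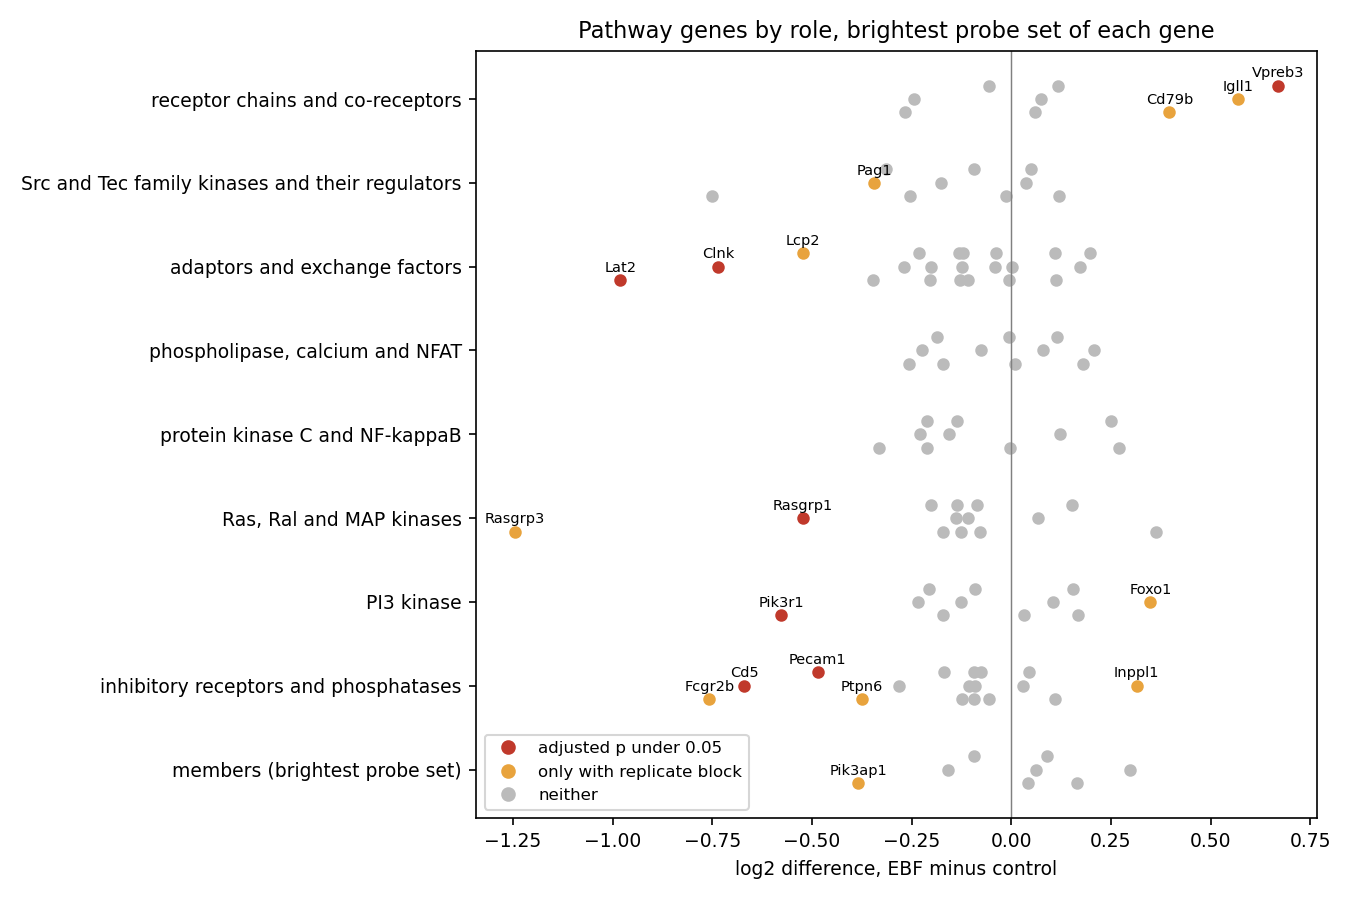
Log2 differences, EBF minus control, of 102 pathway genes by role and of the 8 members, each at its brightest probe set; red passed limma at an adjusted p of 0.05, orange passed with the block alone, grey passed neither. Lat2, Clnk and Rasgrp3 are among the genes that lie farther below 0 than any member, and Vpreb3 and Igll1 among those farther above.

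At the receptor, Vpreb3, a partner of the pre-B cell receptor, was the 1 of 9 receptor and co-receptor genes to rise (log2 0.67 ± 0.08 SE; limma adjusted p = 0.0093). With EBF 2, control 1 or control 2 left out it missed the threshold (adjusted p up to 0.0635). Cd79b, whose tail Blk and Syk act on, read 8296 ± 414 and 6303 ± 501 (SD, n = 3 each). It rose with the block alone (adjusted p = 0.0191), as did Igll1 (0.00409). The other Igll1 probe set had a log2 difference of 0.02. That probe set read 193 to 249, below the brightest Bacillus control in every array, so its difference sets no limit on the gene. Cd79a, the partner of Cd79b, had a log2 difference of -0.27. Of 10 Src and Tec family kinases and regulators 0 passed by limma and 1, the Csk-binding protein gene Pag1, fell with the block (log2 -0.34, adjusted p = 0.0406); its other 3 probe sets had log2 differences of -0.06, 0.01 and 0.01. Relatives of the members gave log2 differences of 0.05 for Fyn, 0.12 for Tec, -0.01 for Zap70 and 0.18 for Plcg1.

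Of 21 adaptors and exchange factors, 2 fell by limma, 3 fell with the block and 18 passed in neither fit. Lat2, a membrane adaptor of B, NK and mast cells, read 1070, 1150 and 1045 in EBF 1 to 3 and 2303, 2170 and 2063 in control 1 to 3, and fell by 0.98 ± 0.08 on the log2 scale (SE; limma adjusted p = 0.00165; highest 0.0186 without any 1 array). Its other 2 probe sets went the opposite way, with 0.29 and 0.38, and the second of these rose with the block (adjusted p = 0.0385). Clnk, a relative of Blnk, fell by 0.74 ± 0.10 (SE; 0.0195) and missed the threshold when EBF 1, EBF 2, control 1 or control 2 was left out (up to 0.0962). Clnk exceeded the brightest Bacillus control in 4 of 6 arrays. Lcp2, the counterpart of Blnk in T and NK cells, fell with the block alone (log2 -0.52; adjusted p = 0.163, blocked 0.00933), and its other probe set had -0.09. Whether these genes differ from Blnk in their change was not tested. NK markers moved as well, in both directions. Over the 5 measured of 6 listed, the summed intensity was 2506 to 3682 in EBF and 4360 to 5905 in control arrays. Klrd1 and Nkg7 fell (log2 -2.06 and -1.70) and Gzma rose (2.78). Gzma lay below the brightest Bacillus control in each control array and read 921 or more in each EBF array. Ncr1 and Prf1 did not exceed the Bacillus controls in all arrays. Their part in these results was not tested.

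Downstream of Pik3ap1, the regulatory subunit gene Pik3r1 fell by 0.58 ± 0.08 on the log2 scale (SE; limma adjusted p = 0.0237) and missed the threshold when EBF 1, EBF 2, control 1 or control 2 was left out (up to 0.130). All 3 of its other probe sets were lower in EBF, by log2 -0.59, -0.58 and -0.17. The catalytic subunit gene Pik3cd had 0.17, and Foxo1, which the pathway restrains, rose with the block alone (0.35; adjusted p = 0.0401). Of its other 3 probe sets, 2 rose with the block (0.41 and 0.37) and 1 had -0.13, lower in 3 of 3 pairs. Downstream of Plcg2, the Ras exchange factor Rasgrp1 fell by 0.52 (limma adjusted p = 0.0209), a call that ended when any array but EBF 3 was left out (up to 0.106). Its other 3 probe sets had log2 differences of -0.55, which passed with the block (adjusted p = 0.0115), and of -0.19 and -0.11, which passed in neither fit. Rasgrp3 read 934, 866 and 558 in EBF 1 to 3 and 2511, 2225 and 1158 in control 1 to 3; number 3 was lowest in both groups. It had -1.25 ± 0.29 (SE; limma adjusted p = 0.0987) and fell with the block (2.25e-04), while its other probe set fell in the fit without it too (-1.05; limma adjusted p = 0.0470), though not when EBF 1, EBF 2, control 1 or control 2 was left out (up to 0.207). Prkcb had 0.27 and Rala, a GTPase that Ralgps2 acts on, 0.07, and 0 of 11 phospholipase, calcium and NFAT genes and 0 of 10 protein kinase C and NF-kappaB genes passed in either fit.

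Among 17 inhibitory receptors and phosphatases, Cd5 (log2 -0.67, limma adjusted p = 0.0121) and the adhesion receptor gene Pecam1 (-0.49, 0.0309) fell. Cd5 exceeded the brightest Bacillus control in the 3 control arrays and in no EBF array, so the size of its fall is uncertain. Leaving out EBF 1, EBF 2 or control 1 ended the call of Cd5 (adjusted p up to 0.0819), and leaving out any array but EBF 3 that of Pecam1 (0.161). With the block, the Fc receptor gene Fcgr2b (-0.76) and the phosphatase gene Ptpn6 (-0.37; -0.61 at its other probe set, which passed by limma without the block, adjusted p = 0.0416, but not when any array but EBF 3 was left out, up to 0.136) fell as well, and Inppl1, a lipid phosphatase gene, rose (0.31). Several members are also expressed in myeloid cells. The 10 measured myeloid markers of 11 summed to 5287 to 5549 in EBF and 5317 to 5818 in control arrays, with overlap; 1 of them, Lyz2, fell, and 5, Mpo, Itgam and S100a8 among them, did not exceed the Bacillus controls in all arrays. The 6 T cell markers overlapped likewise, at 3610 to 4120 and 3538 to 4071, as did the 8 ST2 stromal markers, at 13516 to 19937 and 14969 to 26033, of which 7 exceeded the Bacillus controls in all arrays. The 12 pro-B markers summed to 75382 to 77789 in EBF and 66652 to 70835 in control arrays, without overlap. The sum weighs bright genes most, among them Igll1, with 12201 to 14518 in EBF and 7789 to 10286 in control arrays. By limma 0 of the 12 rose and 2 fell, and with the block 3 rose and 2 fell, so the sum does not show the list as a whole raised. The part of these levels in the members' values was not tested.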

How the data were processed

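Expression was measured in 6 arrays of biotin-labelled cRNA made from 6 microg total RNA, per the labels' protocols. The deposited values are linear intensities per probe set; neither labels nor header say how the authors corrected background or normalized. The design text names a rat array, but the organism label and the platform's gene table are of the mouse. The 64 control probe sets were left out. No scaling was added, as array medians differed by at most 1.06 times. Each value was turned into log2(intensity + 32), which shrinks the folds of dim genes. A two-sided limma test (version 3.58.1, R 4.3.3; lmFit, then eBayes) with no term but group compared EBF with control, with Benjamini-Hochberg adjustment over all 45037 probe sets and a threshold of 0.05; the fit was tested on simulated data. Of these probe sets, 34945 had 1 gene symbol, 932 several and 9160 none listed. A gene is read at its brightest probe set over all arrays, except that members are given at each one.

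Members, gene lists, tests and alternatives were chosen with earlier results of these data known. The rule named each member, each pathway gene that passed with or without the replicate block, and 14 partners and relatives, some of which were not analysed here. The labels do not say what a replicate number stands for; its use for pairing rests on the correlations given above. The number of arrays limits the precision. Alternatives were other pseudocounts, scalings, a dim-probe filter, a variance trend, the replicate block, adjustment over genes and left-out arrays.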

Additional observations from a re-analysis of the deposited data

How the results depend on the processing

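The replicate numbers were taken to pair the arrays, from the correlations given above. The block raised the member probe sets that passed from 0 to 1 (1 lower). It raised the pathway genes from 7 to 16 (5 higher, 11 lower instead of 1 and 6), and the calls among all 45037 probe sets from 394 to 3280. Without any 1 array, the members that passed numbered 0 to 1 (higher 0 to 0, lower 0 to 1) and the pathway genes 1 to 16 (higher 0 to 6, lower 1 to 10). Among all probe sets the calls then ranged from 79 without EBF 2 to 4287 without EBF 3. Without EBF 3 and control 2 together, 1 member probe set passed (1 lower), and 12 pathway genes (3 higher, 9 lower), as did 1887 of all probe sets. With a variance trend and robust prior, 10 pathway genes passed, of which 3 were higher, and 611 of all probe sets. The other alternatives left both counts within 1.5 times. For the log2 differences of the 14 member probe sets, 206 values kept direction and call, 3 gained a call (all of them Pik3ap1 at 1429831_at) and 9 changed sign, all near 0. Ralgps2 at 1431704_a_at had -0.0256 after quantile normalization, -0.0177 with equal trimmed means, -0.0243 with equal medians and -0.0598 without EBF 3 and control 2, and ranged from -0.0568 to 0.0464 with 1 array left out. Syk had -0.0061 at 1418261_at without EBF 3 and control 2, and ranged from -0.0197 to 0.105 at 1425797_a_at with 1 array left out. Zap70 ranged from -0.0753 to 0.0422 with 1 array left out and had 0.0066 without EBF 3 and control 2. The cause was not tested. Blnk and Bank1 are limited by signal close to that of the Bacillus controls.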
